A study of Bos taurus with 90 samples.

Results

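Low residual feed intake (RFI) was compared with high RFI in the liver of Holstein-Friesian (HF) steers fed zero-grazed grass (ZG). The libraries were chosen by their labels alone, as those with the breed Holstein Friesian and the grass diet, and 18 of the 90 libraries of the series met this rule. They came from 10 low RFI steers and 8 high RFI steers, each steer giving a single ZG library. RFI is the part of a steer's dry matter intake that its weight and growth do not predict, so that a low RFI steer eats less than predicted and is the more feed efficient animal. The study sequenced liver mRNA of Charolais (CH) and HF steers of extreme RFI at the end of a high-concentrate phase (H1), the grass phase (ZG) and a later high-concentrate phase (H2). Within HF, steers were ranked again for RFI on grass and the extremes were taken, so neither group holds animals of middling RFI. All 18 steers carried no drug or genetic treatment in the labels, had been bought from commercial herds, had eaten H1 and then grass silage before ZG, were offered freshly cut grass, mostly perennial ryegrass, without restriction, and were biopsied by percutaneous punch. The study states the age of its steers as a breed mean at the start of H1, and the age of each steer at the ZG biopsy is not used here.

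The liver of a ruminant makes glucose from propionate and amino acids, exports triglyceride in lipoproteins, detoxifies nitrogen and plant compounds, and secretes the acute phase and clotting proteins of the blood. INPP1 and IMPA1 are phosphatases that act in succession on the inositol phosphates released by phosphoinositide signalling and so return free inositol to the cell. ALAS1 catalyses the first and rate-limiting step of hepatic heme synthesis, and much of that heme is built into cytochrome P450 enzymes.

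Gene counts summed to between 11696079 and 63621304 reads in a library (median 18447980), and 12492 genes passed the filter on low counts. Gene names were at hand for 308 of these 12492 genes, namely those the study listed in any of its RFI comparisons, and the other 12184 carry an Ensembl identifier only. Of 10 hepatocyte markers none could be matched to an identifier, so the tissue label was checked on the named liver-secreted genes instead: FGA and FGG, which encode fibrinogen chains, had at least 6396 and 6446 CPM in every library. CPM stands for the count scaled to a common library size after TMM normalization. TMM factors, the scaling that corrects for a few abundant genes taking up the reads, set 4 libraries apart, with factors of 0.816 to 0.841 against 0.907 to 1.20 in the other 14. These 4 were steers 1798, 2069 and 2242 of the high RFI group and steer 5635 of the low RFI group. Their 100 most abundant genes took 60.4% to 64.4% of the reads, against 50.7% to 61.8% in the other libraries. They scored 59.0 to 109.3 on the first principal component, which held 56.6% of the variance, and the other 14 scored from -63.2 to 29.9. In these 4 libraries 2221 genes (17.8%) lay below, and 1742 genes (13.9%) above, every one of the other 14. IRS2, an adaptor of the insulin receptor, was at 0 to 0.0999 CPM in the 4 libraries and at 0.525 to 5.67 CPM in the others, while UGT2B15, a glucuronidating enzyme, was at 223 to 297 CPM against 48.7 to 186 CPM. Because 3 of the 4 were high RFI libraries, gene counts and the main genes are also given without them. The tests on principal components and those between diets or breeds were run with all libraries only. The role of RNA quality or handling in this split was not tested.

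**Figure D1:**
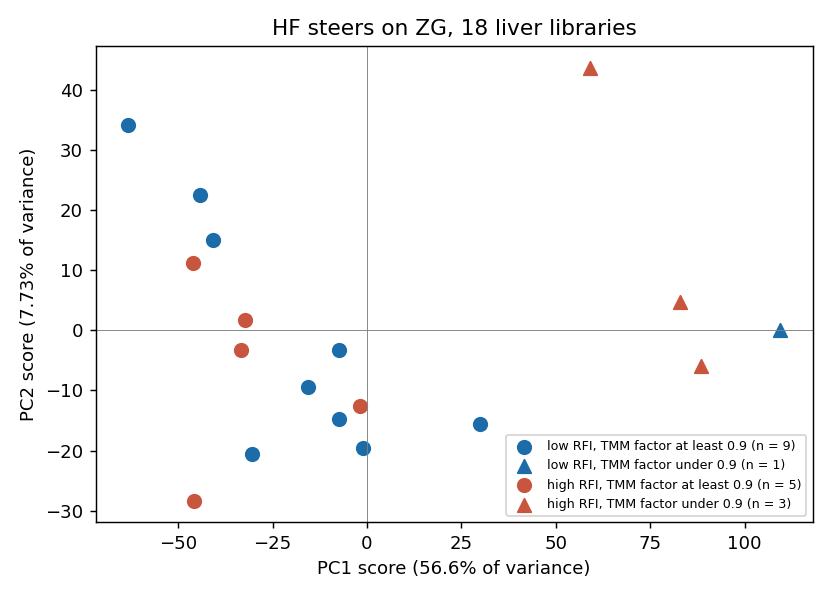
Libraries placed by their first principal component (horizontal, 56.6% of variance) against the second (vertical, 7.73%), computed on log2 CPM of the 12492 genes. Blue marks low and red high RFI, triangles mark the 4 libraries with a TMM factor under 0.9, which all lie at 59.0 or above on the horizontal axis, and the RFI groups overlap on both axes.

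No difference between the RFI groups was detectable along the main axes of variation. For the first to the fourth component the two-sided exact permutation p over the 43758 splits of the steers was 0.531, 0.793, 0.888 and 0.686, and each Benjamini-Hochberg adjusted p was 0.888. The components held 56.6%, 7.73%, 5.26% and 3.82% of the variance.

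Gene by gene, the quasi-likelihood test of edgeR found 0 of 12492 genes at an adjusted p under 0.1, the threshold the study used (0% of genes tested). An unadjusted p under 0.05 was found for 261 genes (2.09%), 101 higher (0.809%) and 160 lower (1.28%) in low RFI steers, where 624.6 would be expected without any difference. The DESeq2 Wald test called 2 genes, INPP1 and ALAS1, out of 18407 with an adjusted p (0.0109%), and gave an unadjusted p under 0.05 for 368 genes. limma-voom with quality weights called 0 genes and gave an unadjusted p under 0.05 for 665. Without the 4 libraries edgeR again called 0 genes, with 597 of 12775 (4.67%) at an unadjusted p under 0.05. DESeq2 gave an adjusted p to 10956 genes here, against 18407 with all libraries, so its counts come from unlike sets. It called 29, of which 22 were higher and 7 lower in low RFI steers. INPP1 and FBP2, a fructose bisphosphatase, were the named genes among these 29. FBP2 was picked out after its values were seen, and its log2 fold change was 1.48 in that fit and 0.71 with all 18 libraries.

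INPP1 (ENSBTAG00000007584) was expressed at a higher level in every low RFI steer than in any high RFI steer. Levels in low RFI steers ran from 21.0 to 39.2 CPM with a median of 25.7, and high RFI steers ranged from 12.8 to 20.7 CPM with a median of 16.8. Thus the 10 low RFI values all lay above the 8 high RFI values, and INPP1 was the single gene of 12492 (0.00801%) whose groups did not overlap. The nearest steers across the gap were 2065 (low RFI, 21.0 CPM) and 2069 (high RFI, 20.7 CPM). Mean levels were 27.7 ± 6.21 CPM (SD, n = 10) and 16.7 ± 2.56 CPM (SD, n = 8). The log2 fold change was 0.73 (SE 0.14). The edgeR adjusted p was 0.551 (unadjusted 4.41e-05), the DESeq2 adjusted p was 0.00476, and the two-sided exact permutation test on log2 CPM gave p = 6.86e-05. The gene was listed by the study for this comparison on the same libraries, so these p-values do not test it on other animals. Between 177 and 1305 reads per library were behind these levels. Leaving out the 4 libraries gave a log2 fold change of 0.81 (SE 0.15, edgeR adjusted p = 0.291, DESeq2 adjusted p = 0.00127, exact permutation p = 0.0005 over 2002 splits). In the 4 libraries the mean log2 CPM of INPP1 was 0.04 above that of the other 14, but this contrast mixes the RFI groups. Among high RFI steers, 1798, 2069 and 2242 had 18.1 to 20.7 CPM of INPP1, and the others had 12.8 to 17.2 CPM. Low RFI steer 5635 had 35.4 CPM, exceeded in its group by steer 5632 only. Within each RFI group INPP1 thus lay high in these libraries. In a bulk biopsy, fewer cells with a transcript and less of it per cell cannot be told apart.

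IMPA1, which removes the last phosphate from inositol monophosphates, showed no such gap. Low RFI steers ranged from 22.2 to 45.7 CPM around a median of 32.5, and high RFI steers from 28.1 to 43.9 CPM around a median of 32.6. The high RFI range lay within the low RFI range, and the log2 fold change was -0.02 (SE 0.14, unadjusted p = 0.884 in edgeR).

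ALAS1 (ENSBTAG00000004118) was lower in low RFI steers. They ranged from 156.1 to 409.5 CPM with a median of 257.6, whereas high RFI steers ranged from 302.2 to 872.3 CPM with a median of 529. The groups overlapped between 302.2 and 409.5 CPM, and 6 of the 10 low RFI steers lay below every high RFI steer, as was the case for at least 6 of 10 in 66 of 12492 genes (0.528%). Mean levels were 277 ± 80.0 CPM (SD, n = 10) and 535 ± 179 CPM (SD, n = 8). The log2 fold change was -0.95 (SE 0.20). The DESeq2 adjusted p was 0.0741 and the exact permutation p was 0.000617, while the edgeR adjusted p was 1.0 (unadjusted 0.00016). As for INPP1, the study had listed the gene on these libraries. Leaving out the 4 libraries gave -0.88 (SE 0.25), and neither edgeR (adjusted p = 0.922) nor DESeq2 (adjusted p = 0.202) called it, with an exact permutation p of 0.011. ALAS1 was itself higher in the 4 libraries, by 0.52 in mean log2 CPM, but most of the 4 were of high RFI, so this contrast also holds the RFI difference. Steers 1798, 2069 and 2242 had 526.5 to 647.1 CPM, inside the 302.2 to 872.3 CPM of the other high RFI steers. Low RFI steer 5635 had 269.8 CPM, near the low RFI median. CYP3A5, a cytochrome P450 that carries heme, had a log2 fold change of 0.05 (SE 0.20), with medians of 669 CPM in low and 668 CPM in high RFI steers.

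**Figure D2:**
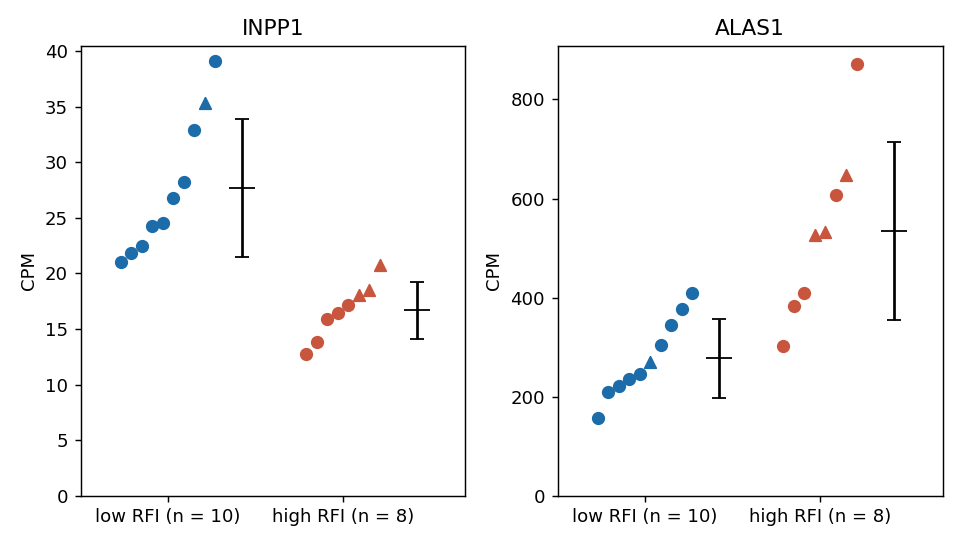
CPM of INPP1 (left) and ALAS1 (right) in each steer, low RFI in blue (n = 10) and high RFI in red (n = 8), sorted within a group, with the mean and SD beside each group and triangles for the 4 libraries with a TMM factor under 0.9. The INPP1 groups meet at 21.0 and 20.7 CPM without overlap, and the ALAS1 groups overlap between 302.2 and 409.5 CPM.

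None of the genes named below passed edgeR's adjusted threshold, and each is described by its values. Of the 308 genes with a name, 5 were higher and 7 lower in low RFI steers at an unadjusted p under 0.05 in edgeR, against 101 and 160 over all 12492 genes. Apart from INPP1 and ALAS1, the higher genes were APOC3, EIF4B, DGAT2 and UHRF1, and the lower genes were NOCT, LOC100848815, FCGR2B, SIK1, TNC and CHI3L2. The edgeR adjusted p of each of these 10 genes was 1.0. The named genes as a whole leaned one way: 193 of the 308 had a log2 fold change above 0 (median 0.06) with all libraries, and 130 were above and 178 below 0 (median -0.05) without the 4. The gene groups described below were drawn from these 308 genes.

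**Figure D3:**
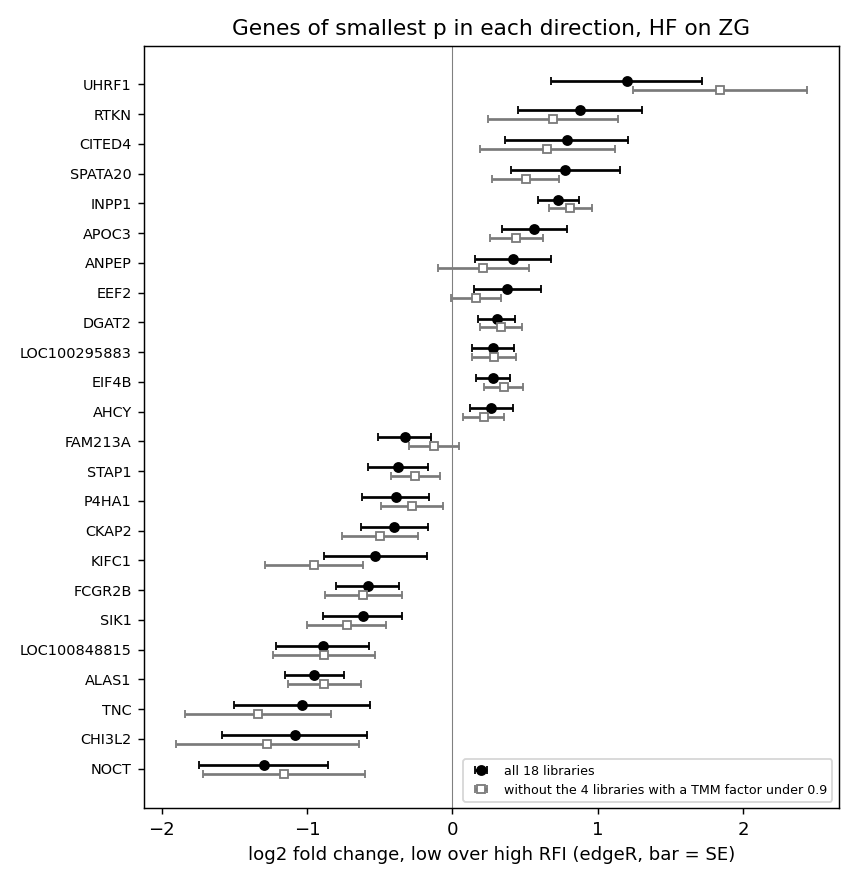
Log2 fold change of low over high RFI with its SE (edgeR) for the 12 named genes of smallest p in each direction, with all 18 libraries (filled circles) and without the 4 libraries with a TMM factor under 0.9 (open squares). Every one of the 24 genes keeps its direction, which is largely set by picking them on libraries that both fits share. UHRF1 moves farthest, from 1.20 to 1.84.

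Among genes of lipid metabolism, the apolipoprotein APOC3 and the triglyceride-forming enzyme DGAT2 were at higher levels in low RFI steers. APOC3, which slows the clearance of triglyceride-rich lipoproteins, had 707.5 to 2922 CPM (median 1805) in low RFI and 777.5 to 1618 CPM (median 1370) in high RFI steers. Of the low RFI steers 8 lay above every high RFI steer, and the lowest of all was low RFI steer 5635, one of the 4 libraries that stood apart. The log2 fold change of APOC3 was 0.56 (SE 0.22, unadjusted p = 0.0199 in edgeR), and 0.44 (SE 0.18) without the 4 libraries. APOC3 ran from 707.5 to 1114 CPM in the 4 libraries and from 1177 to 2922 CPM in the other 14.

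DGAT2, which adds the last fatty acid to triglyceride, ranged from 27.1 to 48.4 CPM (median 36.7) in low RFI and from 23.9 to 38.3 CPM (median 33.1) in high RFI steers. The ranges overlapped widely, with 4 low RFI steers above all others. Its log2 fold change was 0.31 (SE 0.13, unadjusted p = 0.0277 in edgeR) and 0.33 (SE 0.14) without the 4 libraries. Leaving out steer 1212, 1668, 2094 or 2242 gave DGAT2 an unadjusted p of 0.0628, 0.0542, 0.0537 or 0.0624 in edgeR. Without any other single steer the p stayed under 0.05. Over the 16 lipid genes tested, 12 had a log2 fold change above 0 and the median was 0.23, against 193 of 308 and a median of 0.06 over the named genes, and 49.5% above 0 and a median of -0.00 over all genes. With the 4 left out, 10 of the 16 were above 0 and the median was 0.15. The highest value belonged to NR0B2, a nuclear receptor that represses bile acid synthesis, at 0.63 (SE 0.42), and the lowest to the transporter ABCA6 at -0.17 (SE 0.18), and neither had an unadjusted p under 0.05. GPD1, which supplies the glycerol backbone of triglyceride, had 0.34 (SE 0.22), and MID1IP1, an activator of acetyl-CoA carboxylase, had -0.03 (SE 0.23).

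Translation genes had log2 fold changes above 0 in 8 of 8 tested, with a median of 0.19, beside the 193 of 308 named genes above 0. EIF4B, an initiation factor that assists the unwinding of mRNA, had 160.0 to 211.9 CPM (median 186) in low RFI and 94.4 to 177.6 CPM (median 157) in high RFI steers. For EIF4B 7 low RFI steers lay above every high RFI steer, and high RFI steer 2272 lay far below the rest. The log2 fold change was 0.28 (SE 0.12, unadjusted p = 0.0254 in edgeR), 0.35 (SE 0.14) without the 4 libraries and 0.20 (SE 0.09) without steer 2272. The elongation factor EEF2 had 0.38 (SE 0.23), which was 0.17 (SE 0.17) without the 4 libraries, where EEF2 ran from 407 to 580 CPM against 684 to 1295 CPM in the other 14. The ribosomal protein gene RPL19 had 0.17 (SE 0.12) and the initiation factor subunit EIF3I 0.17 (SE 0.12). With the 4 left out, 7 of the 8 were above 0, DOHH being the exception at -0.22, and the median was 0.17.

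Among rhythmic and hormone-responsive genes, NOCT, a circadian phosphatase that acts on nicotinamide dinucleotides, had the smallest unadjusted p of any named gene lower in low RFI steers after ALAS1. NOCT ranged from 1.36 to 12.3 CPM (median 6.45) in low RFI and from 4.34 to 49.6 CPM (median 10.6) in high RFI steers. Low RFI steers 1834 and 1683 lay below every high RFI steer, the other 8 low RFI values lay within the high RFI range, and high RFI steers 5633 (49.6 CPM) and 2069 (27.5 CPM) stood above all other steers. Its log2 fold change was -1.30 (SE 0.44, unadjusted p = 0.0085 in edgeR), -1.16 (SE 0.56) without the 4 libraries and -0.79 (SE 0.39) without steer 5633.

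SIK1, a kinase induced by cAMP that restrains gluconeogenic transcription, ranged from 2.10 to 4.94 CPM (median 3.73) in low RFI and from 2.18 to 12.4 CPM (median 4.34) in high RFI steers. The low RFI range lay inside the high RFI range apart from a single value. Its log2 fold change of -0.62 (SE 0.27, unadjusted p = 0.0358 in edgeR) was -0.73 (SE 0.27) without the 4 libraries and -0.33 (SE 0.24) without high RFI steer 5633, which had the 12.4 CPM. NR1D1, the clock repressor REV-ERB alpha, had -0.55 (SE 0.42, unadjusted p = 0.213), and NFIL3, a clock output factor, had 0.12 (SE 0.16). The times of day at which steers were biopsied are not given in the sources used here, and their part in these values was not tested.

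FCGR2B, TNC and CHI3L2 had an unadjusted p under 0.05 that did not hold without a single high RFI steer, 2272. For FCGR2B this held for steer 2272 alone. The p of TNC and CHI3L2 also exceeded 0.05 without any 1 of several other steers. Leaving out steer 1798, for example, gave 0.0792 for TNC and 0.0608 for CHI3L2 in edgeR. FCGR2B, an inhibitory receptor for immunoglobulin G carried by sinusoidal endothelium and B cells, ranged from 21.6 to 48.1 CPM (median 33.4) in low RFI and from 27.5 to 93.6 CPM (median 45.3) in high RFI steers. The 3 highest values were all from high RFI steers, and below 48.1 CPM the groups were mixed. The log2 fold change of FCGR2B was -0.58 (SE 0.21, unadjusted p = 0.0138 in edgeR) and -0.61 (SE 0.27) without the 4 libraries. For the matrix glycoprotein tenascin C (TNC), low RFI steers ranged from 6.401 to 41.6 CPM (median 20.6) and high RFI steers from 6.34 to 125.7 CPM (median 21.5). The TNC medians thus lay close together, and the log2 fold change of -1.04 (SE 0.47, unadjusted p = 0.0389 in edgeR) rested on the upper tail of the high RFI group. Without the 4 libraries it was -1.34 (SE 0.50). CHI3L2, a chitinase-like secreted protein, had at most 1.80 CPM in low RFI steers and 7.37 CPM in the highest high RFI steer. Its log2 fold change was -1.08 (SE 0.50, unadjusted p = 0.0421 in edgeR) its counts were as low as 1 read, and without the 4 libraries it was -1.27 (SE 0.63). In limma-voom with quality weights the log2 fold changes were -0.26 for FCGR2B, -0.56 for TNC and -0.42 for CHI3L2.

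High RFI steer 2272 was the highest library for FCGR2B (93.6 CPM), TNC (125.7 CPM) and CHI3L2 (7.37 CPM). It was also the highest of the 18 for the acute phase genes HP (13279 CPM), LBP (1076 CPM) and SERPINA3 (2479 CPM), and the lowest for EIF4B (94.4 CPM) and INPP1 (12.8 CPM). Without it the log2 fold changes were -0.40 (SE 0.19, unadjusted p = 0.0534) for FCGR2B, -0.55 (SE 0.42, p = 0.210) for TNC and -0.33 (SE 0.39, p = 0.406) for CHI3L2 in edgeR, and 0.68 (SE 0.14) for INPP1. Its removal raised the number of genes with an unadjusted p under 0.05 from 261 to 419. Over the 15 leukocyte genes tested the median log2 fold change was -0.03, with 6 above and 9 below 0, and without the 4 libraries it was -0.20 with 4 above and 11 below. DOCK8, a regulator of lymphocyte migration, had 0.02 (SE 0.20), and CLEC12A, a myeloid lectin, had -0.04 (SE 0.26).

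Acute phase genes were spread widely between steers of each RFI group. HP, which encodes the hemoglobin-binding protein haptoglobin, ran from 14.03 to 5544 CPM (median 73.3) in low RFI and from 11.98 to 13279 CPM (median 82.8) in high RFI steers. Only steers 2272 (high RFI) and 2094 and 1961 (low RFI) exceeded 613 CPM, and the log2 fold change of HP was -0.91 with an SE of 1.41, and -1.54 (SE 1.75) without the 4 libraries. LBP, which binds bacterial lipopolysaccharide, had -0.67 (SE 0.50) and the protease inhibitor SERPINA3 had -0.51 (SE 0.51). For LBP and SERPINA3 the next highest steer after 2272 reached 268 and 635 CPM. Of the 10 acute phase and complement genes tested, 7 were below and 3 above 0, the median was -0.06, and none had an unadjusted p under 0.05. The share over all 12492 genes was 2.09%, so none among 10 says little. FGG and FGA, at -0.13 (SE 0.26) and -0.01 (SE 0.24), and the complement gene C5, at 0.06 (SE 0.23), were among those nearest 0.

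Genes of amino acid and one-carbon metabolism (16 tested, 9 above 0, median 0.01) and of detoxification and glutathione (10 tested, 7 above 0, median 0.05) held no gene with an unadjusted p under 0.05. Such a p was found for 2.09% of all 12492 genes, so its absence from groups of this size says little. AHCY, which hydrolyses S-adenosylhomocysteine in the methionine cycle, was closest, with 1432 to 2663 CPM (median 2409) in low RFI and 1393 to 2593 CPM (median 1867) in high RFI steers. These ranges nearly coincided, and the log2 fold change was 0.27 (SE 0.15, unadjusted p = 0.0864 in edgeR). BHMT2, which remethylates homocysteine from methylated donors, had 0.08 (SE 0.25), and GSTA4, a glutathione transferase for lipid aldehydes, had 0.20 (SE 0.30). Both gene models named GSTM1 were near 0, at -0.04 (SE 0.19) and 0.08 (SE 0.20). How the counting treated reads that fit both models was not tested. Without the 4 libraries the median of the detoxification genes was 0.21, with 9 of 10 above 0.

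The 20 cell division genes tested had a median of -0.03 with 9 above 0. Without the 4 libraries 18 of the 20 were below 0 and the median was -0.21, when 178 of the 308 named genes were below 0 (median -0.05) and 49.5% of all 12775 genes were above 0. The shift was not particular to cell division. Of 74 tested genes that DESeq2 called higher in low RFI CH steers on H1, 62 were then below 0, with a median of -0.21. Of the 74 called lower there, 25 were below 0. Without the 4 libraries KIFC1, a mitotic kinesin, had -0.95 (SE 0.34, unadjusted p = 0.0126 in edgeR), against -0.53 (SE 0.35) with all libraries, at levels of 0.335 to 2.07 CPM. With the 4 libraries kept and only high RFI steer 1639 left out, the highest for KIFC1, its log2 fold change was -0.21 (SE 0.34, unadjusted p = 0.539 in edgeR). CKAP2, a spindle protein, had -0.40 (SE 0.23), and 5 low RFI steers lay below the lowest high RFI steer at 2.03 CPM. UHRF1, which couples DNA methylation to replication, went the other way at 1.20 (SE 0.52, unadjusted p = 0.0322 in edgeR). UHRF1 ranged from 1.11 to 17.9 CPM (median 4.58) in low RFI and from 0.695 to 6.90 CPM (median 1.74) in high RFI steers. Only 3 low RFI steers exceeded every high RFI steer, and without steer 1909, the one at 17.9 CPM, its log2 fold change was 0.82 (SE 0.48).

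**Figure D4:**
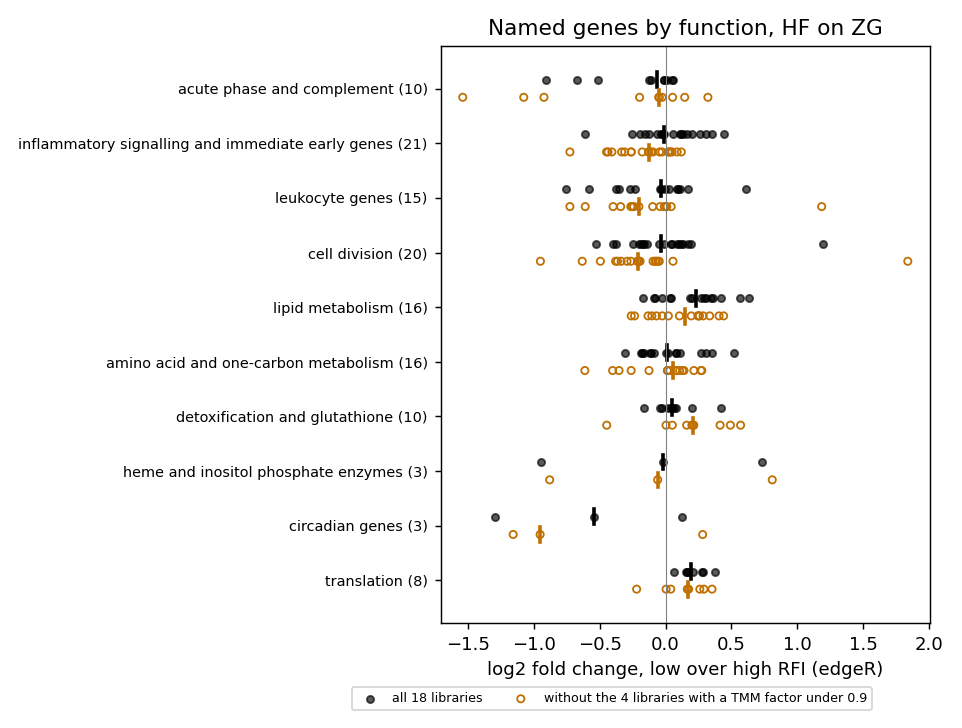
Log2 fold change of low over high RFI (edgeR) for each named gene, 1 point a gene, grouped by function with the number tested in brackets, with all 18 libraries (filled) and without the 4 libraries with a TMM factor under 0.9 (open), and the median of each group as a vertical bar. The lipid and translation genes centre on 0.23 and 0.19 with all libraries, and the cell division genes shift from a median of -0.03 to -0.21 without the 4.

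Pathway lists written from textbook knowledge could hardly be described, because 35 of their 427 symbols matched a named gene and the matched genes were ones the study had picked for an RFI difference. No list had more than 6 matched members. Among those with at least 5 tested, 0 of 5 acute phase, 0 of 5 glutathione, 0 of 5 immediate early and heat shock and 0 of 5 urea cycle and amino acid genes had an unadjusted p under 0.05 in edgeR. Over all 12492 genes the share was 2.09%, so 0 of 5 says little about a list. HSPA1A, the inducible heat shock protein, had -0.04 (SE 0.61), with 17.7 to 93.05 CPM in the 4 libraries and 94.8 to 800.3 CPM in the others. Of 100 marker symbols over 12 cell types, hepatocytes included, 1 matched, the adipocyte gene CIDEC, at 0.141 to 2.76 CPM in low RFI and 0.434 to 1.92 CPM in high RFI steers. The cell composition of the biopsies was therefore not checked any further.

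The RFI effects on grass were set against those of HF steers on the concentrate diets. The question was whether an RFI difference belonged to the grass phase. edgeR's test of the difference between the 2 effects called 0 of 13261 genes for ZG against H1 (0%, with 3.46% at an unadjusted p under 0.05) and 0 of 13030 for ZG against H2 (0%, with 1.83%). limma-voom with the steer as a block, used because 5 of the 18 steers also had an H1 or H2 library, called 0 genes in both. DESeq2 called 0 genes against H1 (548 at an unadjusted p under 0.05) and 2 against H2, namely FBP2 (difference 3.77, adjusted p = 0.0224) and ENSBTAG00000012519 (difference 0.93, adjusted p = 0.0224). The edgeR adjusted p of these differences was 0.689 and 0.628. On ZG itself FBP2 had a log2 fold change of 0.71 (unadjusted p = 0.149 in edgeR). The study listed FBP2 as lower in low RFI HF steers on H2, so its difference does not show an effect on grass.

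INPP1 was 28.3 ± 9.64 CPM in low RFI and 23.8 ± 4.42 CPM in high RFI steers on H1 (SD, n = 7 and 9), and 27.4 ± 8.54 and 31.1 ± 7.48 CPM on H2 (SD, n = 5 and 8), scaled over all 90 libraries. On the same scale ZG gave 30.0 ± 6.63 CPM for low and 18.3 ± 2.89 CPM for high RFI steers (SD, n = 10 and 8), and the high RFI steers on grass had the lowest mean of all 12 groups. The highest INPP1 level in that group, 22.5 CPM, lay below the lowest of low RFI on ZG (22.7 CPM) and of high RFI on H2 (23.5 CPM), and inside the ranges of the other 3 HF groups. The difference between the log2 fold changes was 0.46 (SE 0.23, unadjusted p = 0.0482, adjusted 1.0 in edgeR) against H1 and 0.95 (SE 0.24, unadjusted p = 0.000355, adjusted 1.0) against H2. INPP1 was chosen for its ZG difference, so a larger effect there is partly set by that choice. The low RFI HF library on H2 from steer number 1797 (20.9 CPM of INPP1) shares that number with a CH library on H1. The labels do not settle this, and the library was kept as HF.

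ALAS1 was 155 ± 61.9 CPM in low and 173 ± 48.2 CPM in high RFI steers on H1, and 277 ± 109 and 307 ± 75.9 CPM on H2, against 301 ± 86.1 and 585 ± 192 CPM on ZG (SD, group sizes as for INPP1). High RFI steers on grass thus had the highest mean, above the 418 ± 180 CPM (SD, n = 3) of high RFI CH steers on grass, with overlapping ranges of 326 to 941 and 226 to 584 CPM. Low RFI steers on grass spanned 173 to 442 CPM, which overlapped both H2 groups. The difference between the ALAS1 log2 fold changes was -0.81 (SE 0.32, unadjusted p = 0.0148, adjusted 1.0 in edgeR) against H1 and -0.76 (SE 0.33, unadjusted p = 0.0275, adjusted 1.0) against H2. The diets were fed in a fixed order, so diet and the age of the steers cannot be told apart.

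**Figure D5:**
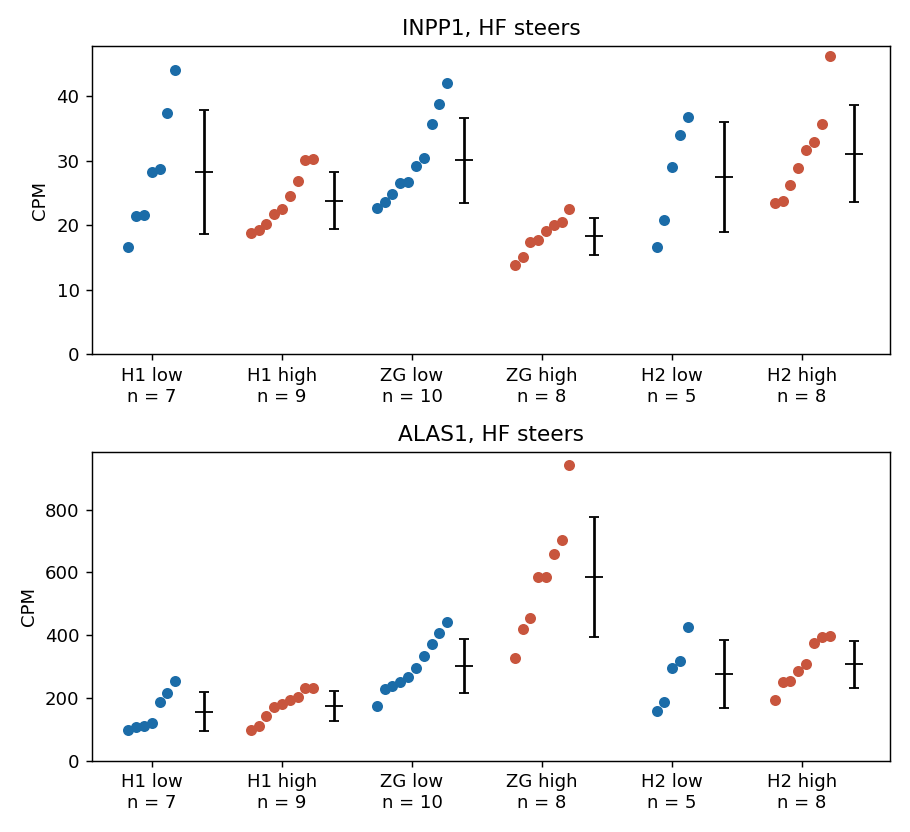
CPM of INPP1 (top) and ALAS1 (bottom) in each HF library, scaled over all 90 libraries, by diet and RFI group, low RFI in blue and high RFI in red, with the mean and SD beside each group. High RFI steers on ZG have the lowest INPP1 mean (18.3 CPM) and the highest ALAS1 mean (585 CPM) of the 6 groups.

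Of the 5 steers sequenced in more than 1 phase, 2 were in the other RFI group in another phase. Steer 2065 had 30.3 CPM of INPP1 as a high RFI steer on H1 and 22.7 CPM as a low RFI steer on ZG, and its ALAS1 went from 109 to 442 CPM. Steer 5632 had 28.7 CPM of INPP1 on H1 and 41.98 CPM on ZG as a low RFI steer, and 35.7 CPM on H2 as a high RFI steer. Steer 2069, high RFI in both phases, had 18.8 CPM of INPP1 on H1 and 22.5 CPM on ZG. These 5 steers do not make a test.

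CH steers on grass (3 low and 3 high RFI) gave a comparison with no shared animals. The difference between the HF and CH effects was called for 0 of 13406 genes by edgeR (0%, with 5.71% at an unadjusted p under 0.05) and for 0 by DESeq2, which gave an unadjusted p under 0.05 for 921. INPP1 had 0.04 (SE 0.22) and ALAS1 -0.13 (SE 0.35) in CH on grass, with differences from HF of 0.69 (SE 0.27, unadjusted p = 0.0157, adjusted 0.588 in edgeR) and -0.81 (SE 0.43, p = 0.0715). Some named genes had opposite signs in the breeds. FCGR2B was at 1.01 in CH against -0.58 in HF, TNC at 2.05 against -1.04, APOC3 at -0.70 against 0.56 and UHRF1 at -2.49 against 1.20 as log2 fold changes. The differences had an unadjusted p of 0.000786, 0.00221, 0.0058 and 0.00276 in edgeR, each with an adjusted p of 0.588. These 4 genes were picked for their opposite signs after the values were seen, and all were called by DESeq2 for CH on grass, so their small unadjusted p is in large part set by that choice.

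DESeq2 called 158 genes for CH on grass, 38 higher and 120 lower in low RFI steers, and in HF on grass 115 of the 120 and 38 of the 38 were tested. Of the 115, 100 had a log2 fold change above 0 in HF, with a median of 0.21 and 2 (APOC3 and UHRF1) higher at an unadjusted p under 0.05. Over all 12492 genes 49.5% were above 0, and 0.809% were higher at such a p in edgeR. In the other 14 libraries 41 of the 115 were above and 74 below 0, and the median was -0.11. These 115 genes differed by a median of -2.02 in log2 CPM between the 4 libraries and the other 14. SLC39A4, a zinc importer among them, was at 0.217 to 0.3498 CPM in the 4 libraries and at 0.621 to 17.1 CPM in the others, and its HF log2 fold change went from 0.53 (SE 0.72) to 0.05 without the 4. For the 38 genes higher in CH, 27 were below 0 in HF with a median of -0.10, and 24 were below 0 with a median of -0.05 without the 4 libraries. With all libraries 4 of the 38 (LOC100848815, FCGR2B, TNC and CHI3L2) were lower and 0 higher at an unadjusted p under 0.05 in edgeR. The share of all 12492 genes lower at such a p was 1.28%.

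The named genes of largest spread among the 18 libraries after HP included a pair of leukocyte genes, with low and high RFI steers overlapping. GIMAP4, a GTPase of lymphocytes, ran from 8.87 to 635.7 CPM in low RFI and from 23.7 to 343.9 CPM in high RFI steers, and its log2 fold change was 0.11 (SE 0.75). LOC768255 ran from 2.83 to 610.8 CPM and from 7.75 to 366 CPM, with 0.17 (SE 0.88). Both genes were lowest in the same 5 steers, namely 1668, 1683, 1834 and 5635 of low RFI and 1798 of high RFI. Steers 1909 and 5632 of low RFI were the 2 highest for both.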

How the data were processed

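Liver mRNA of steers was sequenced as 50 bp single-end reads. Per the authors' methods, reads were trimmed with cutadapt, aligned to UMD3.1 with STAR and counted per Ensembl gene, and the deposited table holds these raw counts per gene with no normalization. The strand setting is not given in the sources used here. Low and high RFI were compared by edgeR 4.0.16 (R 4.3.3; TMM, filterByExpr with a count minimum of 10, robust quasi-likelihood test, Benjamini-Hochberg adjustment, threshold 0.1), and the authors' DESeq2 test (1.42.0 here) and limma 3.58.1 were alternatives. CPM are TMM-scaled, and log2 CPM use a prior count of 2. Every SE was derived from the fold change and its F statistic. Single values were tested by exact permutation over steers, two-sided. The unit of replication is the steer, and depth is given in the text as counting precision only.

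Of 24616 genes, 18407 had a read and 12492 were tested. Names came from the study's own supplementary list (328 identifiers), so named genes had been picked by the study in this series. Named were INPP1 and ALAS1, the 12 named genes of smallest p in each direction, list members, genes whose groups did not overlap and, added after the values were seen, the 8 named genes of largest spread and the functional groups. The members and lists were chosen with earlier results of these data known. Scripts were tested on simulated data. Alternatives are given in the closing section, and those leaving out the 4 libraries were chosen after seeing the data.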

Additional observations from a re-analysis of the deposited data

Results flagged for a closer look

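In 50 groups of values (a gene or library measure in the low or the high RFI steers), 9 had a single steer far from the rest of its group. The rule was meant to be met by chance in about 1 in 20 groups (a share of 0.05), which was not tested on these values. The groups come from the same 18 steers and most genes were picked for small p, so these 9 do not show an excess over chance. Steer 2272 of high RFI accounted for 3 of them. It had the lowest EIF4B level, 94.4 CPM with the next steer at 145.9 CPM, and the highest CHI3L2 level, 7.37 CPM with the next at 2.10 CPM. CITED4, a transcriptional coactivator, was also highest in it, at 3.90 CPM with the next at 2.55 CPM. Steer 5616 of high RFI was far above its group for LOC100295883, at 248.1 CPM with the next at 201.5 CPM, and for the aminopeptidase ANPEP, at 7.30 CPM with the next at 4.19 CPM. SIK1 reached 12.4 CPM in high RFI steer 5633, with the next at 6.63 CPM. Among low RFI steers, UHRF1 was at 17.9 CPM in steer 1909, with the next at 7.59 CPM, and STAP1, an adaptor of immune receptors, was at 8.75 CPM in steer 5635, with the next at 5.59 CPM. Steer 5635 was the low RFI member of the 4 libraries that stood apart. STAP1 ran from 5.85 to 9.36 CPM in those 4 and from 3.58 to 7.59 CPM in the others. The library of high RFI steer 1639 held 63621304 reads on genes, with the next at 23866335.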

How the results depend on the processing

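The count of 0 called genes became 2 with DESeq2 (INPP1 at 0.73 and ALAS1 at -0.94 in log2 fold change), 2 with all 12 groups in one edgeR fit (INPP1 at 0.75 and ENSBTAG00000003240), 1 with the first principal component as covariate (INPP1 at 0.78) and 29 in DESeq2 without the 4 libraries (INPP1 at 0.82). The DESeq2 fits gave an adjusted p to 18407 genes with all libraries and to 10956 without the 4. The cause of these changes in count was not tested. The 261 genes at an unadjusted p under 0.05 became 531 with no filter, which tests more genes, 729 with all 12 groups, 578 with the 6 HF groups, 665 with limma-voom, 544 with the covariate, 597 without the 4 libraries and 736 in DESeq2 without them. Leaving out 1 steer at a time gave 181 to 835, with 835 without low RFI steer 5635 and 419 without high RFI steer 2272, and 0 genes called each time. INPP1 then ran from 0.66 to 0.78 and ALAS1 from -1.04 to -0.81. For ZG against H2, DESeq2 called 2 genes where edgeR called 0. With the steer as a replicate block, 0 genes were called against H1 and 0 against H2. For 22 other named genes, all 238 alternative values kept their direction and their side of the threshold. These genes were picked for small p in the same libraries and were far from the threshold, so that outcome was largely set in advance. The size of the fold changes still moved in limma-voom, as for FCGR2B (-0.58 to -0.26), TNC (-1.04 to -0.56), CHI3L2 (-1.08 to -0.42) and CITED4 (0.79 to 0.28). Leaving out 1 steer moved ANPEP from 0.42 to 0.65 (without 5616), CITED4 to 0.50 (2094), FAM213A from -0.33 to -0.19 (2242) and P4HA1 from -0.39 to -0.25 (1798). Depth limits the low genes most, with CHI3L2 at 1 read in a library.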
